A study of Homo sapiens with 8 samples.

Results

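The 10 genes described here encode the core switch that takes a cell from G2 into mitosis: the kinase CDK1, its cyclin partners CCNA2, CCNB1 and CCNB2, the activating phosphatases CDC25B and CDC25C, the inhibitory kinase WEE1, and the mitotic kinases PLK1, AURKA and AURKB. They were taken by gene symbol from the 58735 genes of the deposited expression table, by a rule that uses no measured value, although the choice was made with earlier results of these data known. Poly(A) RNA was sequenced from the established human prostate cancer cell line PC3, in 4 libraries labelled siPRMT7 (genotype given as PRMT7 knockdown) and 4 labelled siCtrl (genotype given as WT). Both groups were lipofected with Lipofectamine 3000 and kept for 48 h afterwards. PRMT7 is a protein arginine methyltransferase, and the series title ties it to the cell cycle, so these genes bear on the question the comparison addresses. Titles of the samples begin with si but their library names with sh, and the protocol speaks of synthetic RNA mimics, so the kind of RNA transfected is known only as far as these labels go. They do not say that replicates were separate cultures, and every p-value here measures only the spread between these libraries, which may be technical.

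As background, CDK1 has no activity without a cyclin. Cyclin A and B transcripts build up through S phase and G2, WEE1 holds the newly formed complexes inactive by phosphorylating CDK1, and CDC25 phosphatases remove that phosphate. PLK1 and AURKA help to turn the switch by acting on CDC25 and WEE1, and AURKB then works at centromeres and the spindle midzone. In cycling cells most of these genes are transcribed together late in the cycle, through promoters that carry a cell cycle genes homology region (CHR), bound by the MuvB complex with B-MYB or FOXM1, and CCAAT boxes, bound by NF-Y.

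The promoters are shown first because the genes are known for this shared architecture. RefSeq windows on GRCh38.p14, from 250 bases before to 50 bases after a start site, were found by symbol for 8 of the 10 genes, 16 windows in all, as several genes have more than 1 start site. AURKA and WEE1 had none in the table used. The letters TTTGAA (CHR) and CCAAT were searched on both strands, TTCAAA and ATTGG being the reverse complements. The motifs share no overlap in letters at the matches shown. The 130 bases before a start site of CDK1 (chr10:60778348-60778477), CCNB2 (chr15:59105016-59105145) and PLK1 (chr16:23678759-23678888) are given, all on the plus strand and read 5′ to 3′. They are examples of windows that hold both motifs. CDC25C, on the minus strand, also holds both and is not printed. CDK1 has 2 windows, and the stretch and positions given hold for only 1 of them. The CDK1 and PLK1 stretches lie wholly within the annotated genes. The CCNB2 stretch lies partly within its gene, which starts at 59105078. Capitals mark the motif letters on either strand.
CDK1: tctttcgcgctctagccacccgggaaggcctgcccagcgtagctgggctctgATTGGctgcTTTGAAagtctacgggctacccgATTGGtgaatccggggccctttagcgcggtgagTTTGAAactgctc
CCNB2: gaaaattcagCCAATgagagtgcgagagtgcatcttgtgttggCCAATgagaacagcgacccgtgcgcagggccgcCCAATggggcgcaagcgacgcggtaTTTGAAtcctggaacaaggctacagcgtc
PLK1: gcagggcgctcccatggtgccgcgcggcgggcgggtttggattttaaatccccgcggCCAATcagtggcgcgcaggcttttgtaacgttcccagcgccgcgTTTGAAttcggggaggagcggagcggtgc

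In CCNB2 and PLK1 the CHR letters began at the same position, -29 counted from the start site, and in CDK1 they began at -69 and -13. CCNB2 held 3 CCAAT boxes in the stretch shown and PLK1 held 1, whereas both boxes of CDK1 were read on the opposite strand. Over all windows, 4 of the 8 genes (CDK1, CCNB2, CDC25C and PLK1) held the CHR letters, all 8 held a CCAAT box and 4 held both in 1 window. Among all 27305 genes with a window, 18.2% held the CHR letters, 39.7% a CCAAT box and 7.26% both in 1 window. Those genes had 35116 windows, fewer per gene than the 16 windows of these 8, and more windows give more chances of a match. Per window, the shares were 15.2%, 34.6% and 5.9%. A match is a description of the letters, not evidence of a bound site. Variant letters of either motif were not searched, so a gene without TTTGAA, such as CCNA2 or CCNB1, is not shown to lack a CHR.

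**Figure D1:**
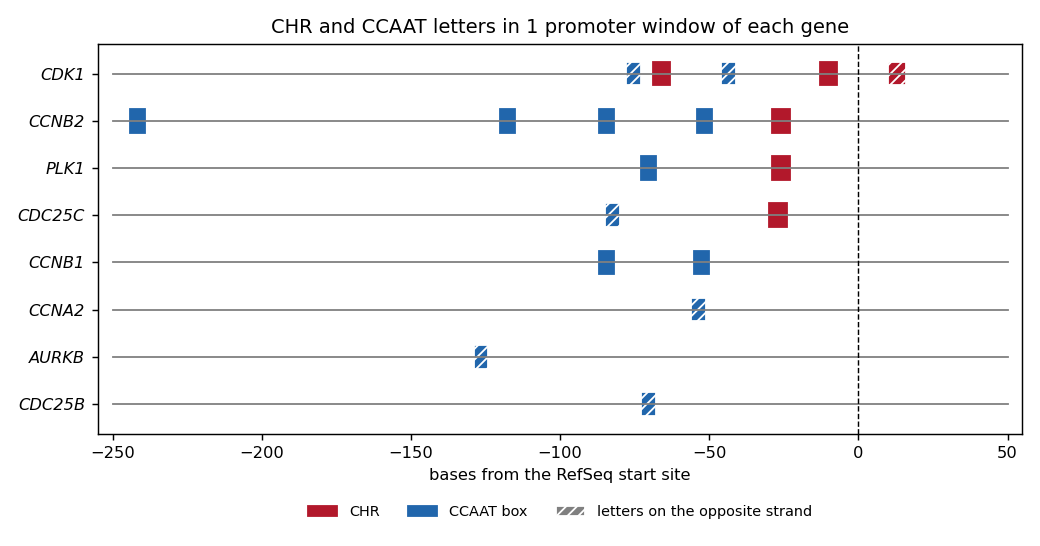
Positions of the CHR and CCAAT letters in 1 RefSeq window of each of 8 mitotic entry genes, in bases from the start site (dashed line). Red boxes mark CHR letters, blue boxes CCAAT letters, and hatching marks letters on the opposite strand. In the windows drawn, CCNB2, PLK1 and CDC25C have their CHR letters within 30 bases before the start. CDK1 has CHR letters beginning at -69, -13 and 10. In another window of CDC25C, not drawn, they begin at 44.

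Total fragments ranged from 14526030 to 15724862 per library. The library siPRMT7 replicate 2 stood apart: its chi-square per gene against the other siPRMT7 libraries, which sampling noise alone would put near 1, was 10.6 to 22.6, against 3.03 to 5.49 among the other siPRMT7 libraries and 2.20 to 3.98 among siCtrl libraries. Its share of fragments from ribosomal protein genes was 3.90%, and that of the other 7 libraries 2.94 to 3.42%. Its part in the results was not tested beyond giving values with and without it. Epithelial keratins and EPCAM summed to 409 to 516 FPKM in siPRMT7 libraries and 397 to 435 FPKM in siCtrl libraries. Of the immune markers CD3E was at 0 in all 8 libraries, and PTPRC was at 0.0726 to 0.194 FPKM in siPRMT7 libraries and 0.0818 to 0.151 FPKM in siCtrl libraries. The endothelial marker PECAM1 was at 2.83 to 3.51 FPKM in siPRMT7 libraries and 3.19 to 3.64 FPKM in siCtrl libraries, and VWF had at most 3 fragments. The part of such cells in the results was not tested. KLK2 and KLK3 were at 0 in all 8 libraries, while TMPRSS2 was at 1.68 to 2.01 FPKM in siPRMT7 libraries and 1.69 to 2.19 FPKM in siCtrl libraries. PRMT7 itself, the targeted gene, had 4.62, 4.31, 5.00 and 4.82 FPKM in siPRMT7 libraries and 5.24, 4.86, 5.10 and 5.25 FPKM in siCtrl libraries. The groups overlapped, the means differed by -8.29%, and the two-sided exact permutation p was 0.0571, where the smallest p that 70 assignments allow is 0.0286. On the TPM scale the groups reached that exact permutation p of 0.0286. That scale also moved the median log2 fold change of all genes tested, from -0.0015 to -0.0352. PRMT7 shares 239 exonic bases with SMPD3 on the opposite strand. Directions below therefore refer to the libraries labelled siPRMT7.

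Every one of the 10 genes had a lower mean in siPRMT7 libraries, by small amounts, and none passed the test. Values are FPKM (fragments scaled to gene length and, between libraries, by median ratios). They were compared as log2(FPKM + 1) with limma, over the 13436 genes that had at least 1 FPKM in at least 4 libraries. All 10 genes were among those tested. The log2 fold changes, siPRMT7 over siCtrl, ran from -0.27 for CDK1 to -0.02 for WEE1, with a median of -0.12 beside -0.0015 for all genes tested. Lower values by themselves are common: 50.5% of all genes tested had a log2 fold change below 0. At an adjusted p under 0.05, 0 of the 10 were called lower and 0 higher, as were 0% (0 genes) and 0.0149% (2 genes) of all genes tested. The voom method of limma on rebuilt fragments also called 0 of the 10. At an unadjusted p under 0.05, 2 of the 10, CDK1 and CCNA2, were lower and 0 higher, against 5.49% and 7.67% of all genes. Only CDC25B had groups that did not overlap, with siPRMT7 lower, and 0 of the 10 had siPRMT7 entirely higher, against 4.43% and 4.14% of all genes. The 95% interval lay below 0 for 2 genes, and for all 10 it excluded a 2-fold lower FPKM. That exclusion was not counted over all genes tested, so it is not shown to be particular to these 10. In bulk RNA, fewer cells in G2 and mitosis cannot be told apart from less of these transcripts in each such cell.

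For 8 of the 10 genes the difference was larger without the divergent library. With siPRMT7 replicate 2 left out, the median log2 fold change of the 10 was -0.17, and 6 genes were lower at an unadjusted p under 0.05, CDK1, CCNA2, CCNB1, CCNB2, AURKA and AURKB, against 5.92% of all genes. The groups then did not overlap for 5 of the 10, with siPRMT7 lower, against 6.56% of all genes. With each library weighted by how closely it followed its group, which gave siPRMT7 replicate 2 a weight of 0.238, 5 genes were lower at that level, against 7.41% of all genes, and 1, CDK1, was called at an adjusted p under 0.05, against 0.0893% of all genes. With each library scaled to its own sum (the TPM scale) 6 were lower at an unadjusted p under 0.05, against 7.78% of all genes, and with quantile normalization 5, against 6.48%.

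**Figure D2:**
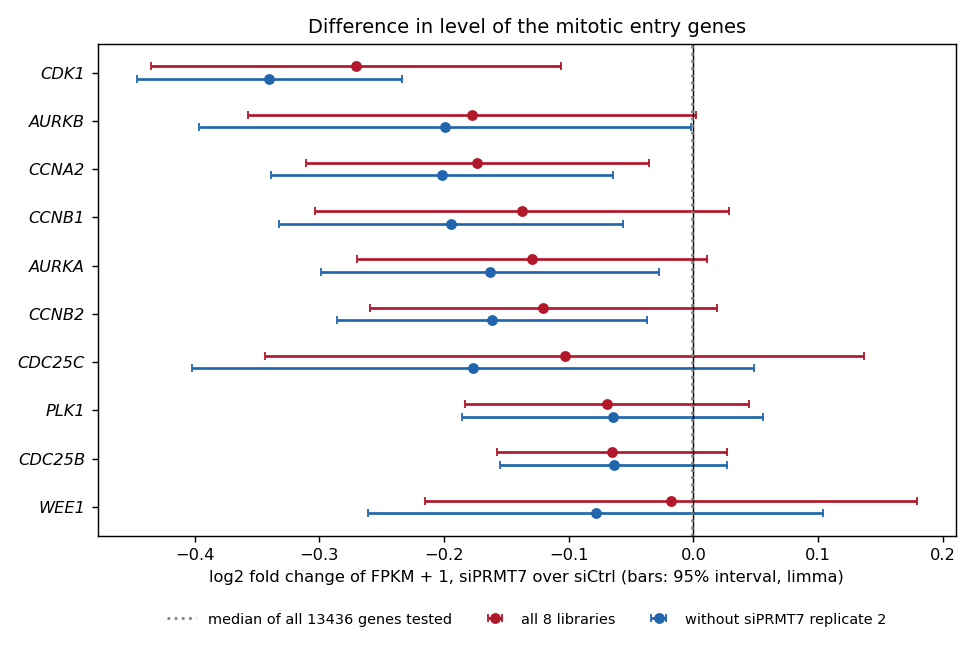
Log2 fold change of FPKM + 1, siPRMT7 over siCtrl, for each of the 10 genes with its 95% interval from limma, over all 8 libraries (red) and without siPRMT7 replicate 2 (blue); the dotted line is the median of all genes tested. All points lie below 0, CDK1 is farthest at -0.27 (red) and -0.34 (blue), and over all 8 libraries WEE1 is nearest to 0.

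CDK1 (ENSG00000170312, chromosome 10, 60778331 to 60794852, plus strand, GRCh38), the catalytic subunit at the centre of the switch, showed the widest gap. It had 13.96, 17.2, 13.9 and 14.1 FPKM in siPRMT7 libraries and 18.5, 17.6, 19.1 and 16.8 FPKM in siCtrl libraries. Replicates 1, 3 and 4 of siPRMT7 lay close together below every siCtrl library, while siPRMT7 replicate 2 lay inside the siCtrl range. The means were 14.8 ± 1.5984 FPKM in siPRMT7 and 18.0 ± 1.01 FPKM in siCtrl libraries (SD, n = 4 each), a difference of -17.8%. The log2 fold change was -0.27 (SE 0.07, 95% interval -0.44 to -0.11), with a limma adjusted p of 0.217. Without siPRMT7 replicate 2 it was -0.34 with a limma adjusted p of 0.0660, and with library weights -0.33 with a limma adjusted p of 0.0362. The call thus depended on how the libraries were weighted.

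Among the cyclins, CCNA2 (ENSG00000145386, chromosome 4, 121816444 to 121823933, minus strand), which partners CDK2 in S phase and CDK1 in G2, had 9.10, 9.95, 8.45 and 9.84 FPKM in siPRMT7 libraries and 10.5, 9.94, 11.3 and 10.8 FPKM in siCtrl libraries. Replicates 1, 3 and 4 of siPRMT7 were below every siCtrl library, and siPRMT7 replicate 2 matched the lowest siCtrl value. The means were 9.33 ± 0.6995 FPKM in siPRMT7 and 10.6 ± 0.576 FPKM in siCtrl libraries (SD, n = 4 each), and the log2 fold change was -0.17 (SE 0.06, 95% interval -0.31 to -0.04, limma adjusted p = 0.293), and -0.20 without siPRMT7 replicate 2. CCNA2 shares 254 exonic bases with EXOSC9 on the opposite strand, and the sources used here do not give whether reads were counted by strand.

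CCNB1 (ENSG00000134057, chromosome 5, 69167010 to 69178245, plus strand), the major mitotic cyclin, which carries CDK1 into the nucleus at mitotic entry, had 22.6, 29.7, 26.6 and 26.7 FPKM in siPRMT7 libraries and 28.1, 29.1, 30.0 and 28.9 FPKM in siCtrl libraries. Again siPRMT7 replicate 2 lay within the siCtrl range, here above the siCtrl mean, and the other 3 siPRMT7 libraries lay below it. On the log2 scale the fold change was -0.14 (SE 0.07, 95% interval -0.30 to 0.03, limma adjusted p = 0.442). It was -0.07 without siPRMT7 replicate 1 and -0.19 without siPRMT7 replicate 2.

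CCNB2 (ENSG00000157456, chromosome 15, 59105078 to 59125045, plus strand), a B-type cyclin found largely at the Golgi, had 8.47, 10.1, 9.37 and 8.95 FPKM in siPRMT7 libraries and 9.98, 9.87, 9.62 and 10.98 FPKM in siCtrl libraries. The same 3 siPRMT7 libraries lay below every siCtrl library. Its fold change was -0.12 on the log2 scale (SE 0.06, limma adjusted p = 0.427), and -0.16 without siPRMT7 replicate 2. The log2 ratio of CCNB1 to CCNB2 differed by -0.02 between siPRMT7 and siCtrl (95% interval -0.17 to 0.13), with a two-sided exact permutation p of 0.829. The interval holds differences of either sign, so the data do not show that these cyclins responded alike.

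**Figure D3:**
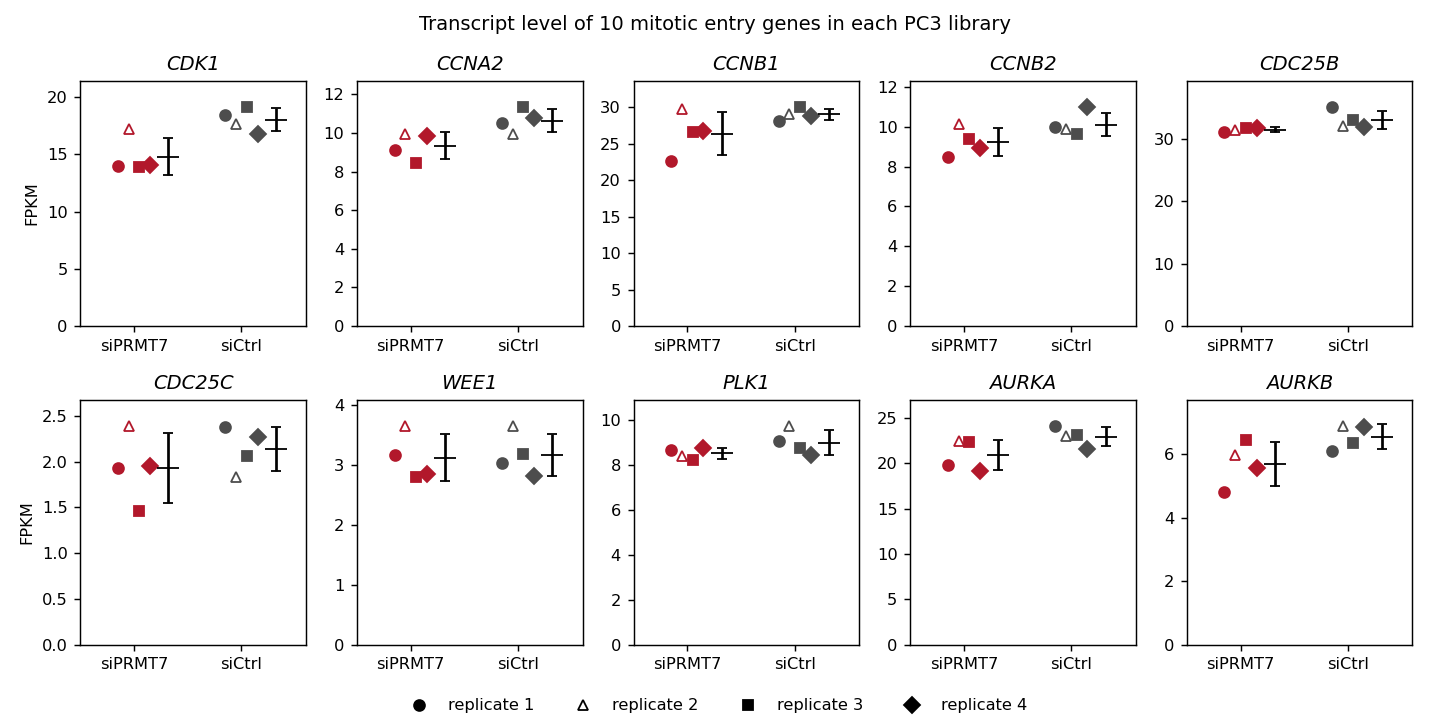
FPKM of the 10 genes in each library, siPRMT7 (red) left and siCtrl (grey) right, with the mean and SD in black; open triangles are replicate 2 of each group and every axis starts at 0. For CDK1 the open siPRMT7 triangle at 17.2 FPKM lies among the siCtrl points while the other 3 siPRMT7 libraries lie at 13.9 to 14.1.

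Of the phosphatases that activate CDK1, CDC25B (ENSG00000101224, chromosome 20, 3786772 to 3806121, plus strand) starts activation at the centrosome and was the most abundant of the 10 genes. It had 31.1, 31.5, 31.7 and 31.8 FPKM in siPRMT7 libraries and 35.1, 32.0, 33.0 and 32.0 FPKM in siCtrl libraries. All 4 siPRMT7 libraries were below all 4 siCtrl libraries, but the nearest values, 31.8 in siPRMT7 and 32.0 in siCtrl, were almost equal. The log2 fold change was -0.07 (SE 0.04, limma adjusted p = 0.499), so the 1 gene without overlap was also among the 3 with the smallest differences. Without siCtrl replicate 1 it was -0.04.

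CDC25C (ENSG00000158402, chromosome 5, 138285265 to 138338355, minus strand), which amplifies CDK1 activation in a feedback loop, was the least abundant. It had 1.93, 2.39, 1.46 and 1.95 FPKM in siPRMT7 libraries and 2.38, 1.84, 2.06 and 2.27 FPKM in siCtrl libraries, and the groups overlapped broadly. Between the groups, the log2 fold change was -0.10 (SE 0.11, limma adjusted p = 0.670). It was -0.02 without siPRMT7 replicate 3, -0.07 without siCtrl replicate 1 and -0.18 without siPRMT7 replicate 2. Its lowest library held 73 fragments, for which counting error alone is 11.7%, and 293 of its exonic bases are shared with FAM53C on the opposite strand. The log2 ratio of CDC25B to CDC25C differed by 0.04 (95% interval -0.23 to 0.30), with a two-sided exact permutation p of 0.771. The ratios are of FPKM + 1, and with a pseudocount of 0.1 this difference was 0.08.

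WEE1 (ENSG00000166483, chromosome 11, 9573681 to 9593457, plus strand), the kinase that opposes CDC25, showed the smallest difference of the 10. It had 3.17, 3.65, 2.80 and 2.85 FPKM in siPRMT7 libraries and 3.03, 3.65, 3.18 and 2.81 FPKM in siCtrl libraries, and the ranges of the groups were nearly the same. The difference in log2(FPKM + 1) was -0.02 (SE 0.09, 95% interval -0.21 to 0.18, limma adjusted p = 0.937), and its sign changed when any of 3 libraries was left out. WEE1 shares 104 exonic bases with RF01210 on the same strand. The log2 ratio of WEE1 to CDC25C, an inhibitor set against an activator of CDK1, differed by 0.09 (95% interval -0.22 to 0.39), with a two-sided exact permutation p of 0.543. With a pseudocount of 0.1 it was 0.13.

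PLK1 (ENSG00000166851, chromosome 16, 23677656 to 23690367, plus strand), the Polo kinase that activates CDC25C and marks WEE1 for destruction, had 8.66, 8.42, 8.24 and 8.75 FPKM in siPRMT7 libraries and 9.06, 9.75, 8.75 and 8.43 FPKM in siCtrl libraries. Its spread among siPRMT7 libraries was small (SD 0.231 FPKM), siPRMT7 replicate 2 was not high here, and all 4 values lay below the siCtrl mean of 8.997 FPKM while overlapping the siCtrl range. The log2 fold change was -0.07 (SE 0.05, limma adjusted p = 0.547), and -0.03 without siCtrl replicate 2. PLK1 shares 595 exonic bases with AC008870.3 and ERN2 on the opposite strand.

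AURKA (ENSG00000087586, chromosome 20, 56369389 to 56392337, minus strand), which activates PLK1 and matures centrosomes, had 19.9, 22.5, 22.3 and 19.1 FPKM in siPRMT7 libraries and 24.2, 23.0, 23.1 and 21.6 FPKM in siCtrl libraries. Replicates 1 and 4 of siPRMT7 were below every siCtrl library, and replicates 2 and 3 were above the lowest one. The log2 fold change was -0.13 (SE 0.06, limma adjusted p = 0.403), and -0.16 without siPRMT7 replicate 2. Of its processed pseudogenes, AURKAP1 had at most 11 fragments in a library and AURKAP2 had 0.

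AURKB (ENSG00000178999, chromosome 17, 8204733 to 8210600, minus strand), the kinase of the chromosomal passenger complex, had 4.79, 5.97, 6.45 and 5.56 FPKM in siPRMT7 libraries and 6.10, 6.89, 6.34 and 6.86 FPKM in siCtrl libraries. Here siPRMT7 replicate 3, not replicate 2, was the one inside the siCtrl range. Its log2 fold change was -0.18 (SE 0.08, limma adjusted p = 0.383). It was -0.11 without siPRMT7 replicate 1 and -0.20 without siPRMT7 replicate 2. The log2 ratio of AURKA to AURKB differed by 0.05 (95% interval -0.16 to 0.26), with a two-sided exact permutation p of 0.543. All 4 ratios compared had an exact permutation p of 0.829 after Benjamini-Hochberg adjustment over the 4, so no difference in response within a pair was detectable with 4 libraries a group.

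The order of levels was the same in both groups, on the FPKM scale, which is per gene length. It ran CDC25B, CCNB1, AURKA, CDK1, CCNA2, CCNB2, PLK1, AURKB, WEE1 and CDC25C, with siPRMT7 means of 31.5 to 1.93 FPKM and siCtrl means of 33.0 to 2.14 FPKM. CCNA2, CCNB2 and PLK1, at siPRMT7 means of 9.33, 9.23 and 8.52 FPKM and siCtrl means of 10.6, 10.1 and 8.997 FPKM, were neighbours whose library ranges overlapped in both groups. The ranges of all other neighbours were separate in both groups, those of CCNB1 and AURKA in siPRMT7 libraries only just, at a lowest 22.6 and a highest 22.5 FPKM.

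The genes did not all follow the same libraries. The mean over the 10 genes of log2(FPKM + 1), as a difference from the siCtrl mean, was -0.19, -0.01, -0.16 and -0.14 in siPRMT7 libraries 1 to 4 and 0.01, 0.0013, 0.0064 and -0.02 in siCtrl libraries 1 to 4. Replicates 1, 3 and 4 of siPRMT7 thus lay well below the siCtrl libraries, and siPRMT7 replicate 2 lay among them. In siPRMT7 replicates 1 to 4, 3, 7, 2 and 3 of the 10 genes were at or above the lowest siCtrl library. For 6 of the 10 genes all 4 siPRMT7 libraries were below the siCtrl mean. These counts were not made over all genes tested, so they are not shown to be particular to these 10. The widest single deviations were AURKB at -0.38 in siPRMT7 replicate 1, CDC25C at -0.35 and CDK1 at -0.35 in siPRMT7 replicate 3, and CCNB1 at -0.35 in siPRMT7 replicate 1.

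**Figure D4:**
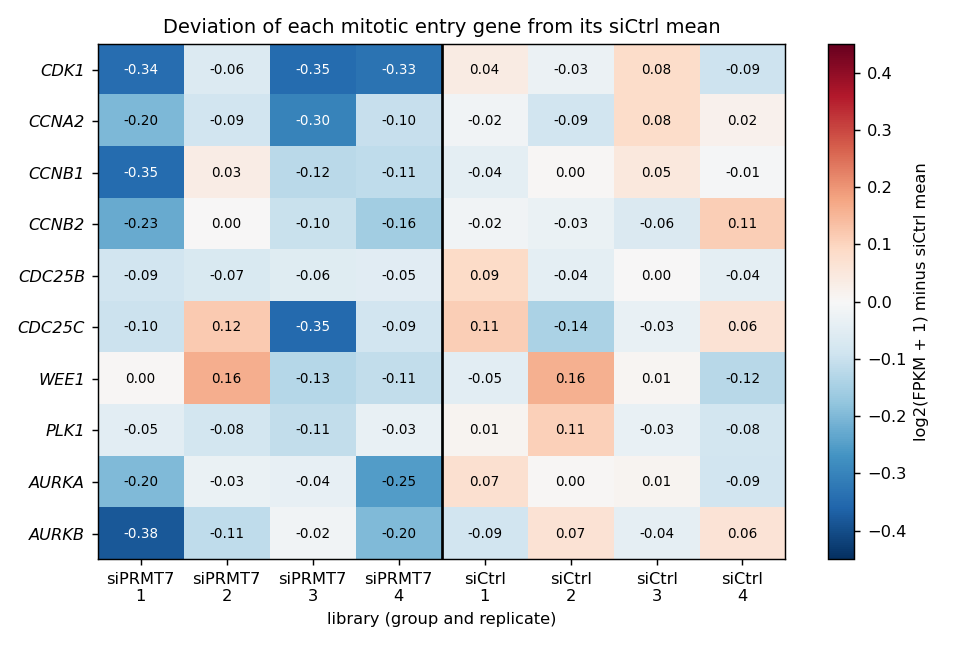
Deviation of log2(FPKM + 1) from the siCtrl mean for each of the 10 genes (rows) in each library (columns, siPRMT7 left of the line, siCtrl right). Blue is below and red above the siCtrl mean; for CDK1 the siPRMT7 replicate 2 cell is pale, at -0.06, beside -0.34, -0.35 and -0.33 in siPRMT7 replicates 1, 3 and 4, whereas for PLK1 it is at -0.08 beside -0.05, -0.11 and -0.03.

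Once the group means were removed, the correlation of each gene with the mean of the other 9 over the 8 libraries was 0.86 for CDK1, 0.76 for CCNB1, 0.52 for CCNB2 and 0.45 for AURKA, and lay between -0.15 for PLK1 and 0.43 for WEE1 for the others. Without siPRMT7 replicate 2, over 7 libraries, these values ran from -0.66 for CDC25C to 0.44 for CCNB1, with 0.21 for CDK1. Joint variation within the groups was thus seen mainly in that library. The 5 genes outside the set whose within-group variation was most like the mean of the 10, of 7113 candidates, were the RNA-binding protein gene HNRNPA2B1 (r = 0.994), the spliceosomal LSM4 (r = 0.992), the mitochondrial sulfide oxidase gene SQOR (r = 0.990), the small GTPase gene ARF5 (r = 0.987) and the chaperonin gene TCP1 (r = 0.986). All 5 were highest in siPRMT7 replicate 2: HNRNPA2B1 had 83.2 FPKM there and 71.3 to 74.5 FPKM in the other siPRMT7 libraries, against 72.2 to 74.8 FPKM in siCtrl libraries. Without that library r was 0.84 to 0.96. The 5 genes had been picked as the highest over all 8 libraries, so that choice favours high values here too. These correlations share the libraries and their scaling and describe likeness only.

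The genes around the switch, in 5 lists of 52 genes, held 49 that were tested, and none of the 49 was called in either direction by limma at an adjusted p under 0.05. Of the 49, 32 had a log2 fold change below 0 and 17 above, with a median of -0.04, where 50.5% of all genes tested lay below 0, the share to set beside the counts of each list. At an unadjusted p under 0.05, 10 were lower and 1 higher, where 5.49% of all genes were lower and 7.67% higher. Groups did not overlap for 8 of the 49 with siPRMT7 lower and 2 with siPRMT7 higher, against 4.43% and 4.14% of all genes. The lower ones were TPX2, INCENP, MYBL2, NFYA, TOPBP1, CLSPN, CDC25A and ARPP19, and the higher ones PPP2CB and PLK2. The genes named below had the 3 smallest unadjusted p of their list, so that choice favours separated groups. With voom on rebuilt fragments 0 were called, and with library weights 1. CCNB3, LIN37 and WEE2 were too low to test. Without siPRMT7 replicate 2 the list medians were -0.08 for the Aurora and Polo list, -0.07 for the transcription factors, -0.05 for the G2 checkpoint, -0.11 for the CDK1 partners and 0.01 for the Greatwall and PP2A-B55 list. The Aurora and Polo median was -0.07 without siPRMT7 replicate 4. On the TPM scale the median was -0.09 for the transcription factors and -0.10 for the G2 checkpoint. The median of all genes tested was also lower on that scale, at -0.0352 against -0.0015.

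The Aurora and Polo cofactors and paralogs had 7 of 10 below 0 and a median of -0.12, beside -0.12 for the mitotic entry genes. TPX2, which activates AURKA and carries it to the spindle, had the smallest p of all 49. It had 36.1, 37.6, 38.8 and 35.9 FPKM in siPRMT7 libraries and 44.2, 42.4, 43.6 and 43.3 FPKM in siCtrl libraries. The groups were well apart and siPRMT7 replicate 2 lay with the other siPRMT7 libraries. The log2 fold change was -0.22 (SE 0.04, limma adjusted p = 0.124), with a limma adjusted p of 0.0438 under library weights and 0.0830 once siPRMT7 replicate 2 was left out. INCENP, the scaffold that activates AURKB, averaged 11.8 ± 1.19 FPKM in siPRMT7 libraries and 13.8 ± 0.342 FPKM in siCtrl libraries (SD, n = 4 each; limma adjusted p = 0.262). The log2 fold change of INCENP was -0.22, and -0.16 without siPRMT7 replicate 2. PLK2, a stress-linked Polo paralog, was on the other side, at 28.3 ± 1.21 FPKM in siPRMT7 and 26.5 ± 0.0773 FPKM in siCtrl libraries (limma adjusted p = 0.388).

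Among the transcription factors of these promoters, B-MYB, MuvB, FOXM1 and NF-Y, 9 of 11 were below 0, with a median of -0.05. MYBL2, which encodes B-MYB, had 16.9, 18.0, 18.1 and 17.5 FPKM in siPRMT7 libraries and 19.5, 20.3, 21.7 and 21.0 FPKM in siCtrl libraries, with no overlap and a log2 fold change of -0.21 (SE 0.05, limma adjusted p = 0.172). NFYA, the DNA-contacting subunit of NF-Y, also had no overlap, at 17.5 ± 0.770 FPKM in siPRMT7 libraries and 19.3 ± 0.470 FPKM in siCtrl libraries (SD, n = 4 each; limma adjusted p = 0.276). LIN52, a MuvB subunit, overlapped, at 4.18 ± 0.0792 FPKM in siPRMT7 and 4.68 ± 0.422 FPKM in siCtrl libraries (limma adjusted p = 0.398).

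The G2 checkpoint genes, which hold CDK1 off while DNA is damaged or unreplicated, had 9 of 11 below 0 and a median of -0.06. TOPBP1, an activator of ATR, had 5.56, 4.51, 4.70 and 4.90 FPKM in siPRMT7 libraries and 6.35, 6.15, 5.86 and 6.11 FPKM in siCtrl libraries, with no overlap (log2 fold change -0.27, limma adjusted p = 0.189). CLSPN, the mediator that brings CHEK1 to ATR, averaged 2.71 ± 0.552 FPKM in siPRMT7 libraries and 3.58 ± 0.265 FPKM in siCtrl libraries (SD, n = 4 each; limma adjusted p = 0.298). Here siPRMT7 replicate 2 was the lowest library, at 1.88 FPKM, opposite to its position for CDK1, and the log2 fold change was -0.31 with that library and -0.20 without it. ATM, the kinase of the double-strand break response, was likewise lowest in that library, at 3.39 FPKM, with means of 4.07 FPKM in siPRMT7 and 4.80 FPKM in siCtrl libraries (limma adjusted p = 0.330). The log2 fold change of ATM was -0.20, and -0.13 without siPRMT7 replicate 2.

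The direct partners and modifiers of CDK1 were split, with 5 of 9 below 0 and a median of -0.02. CDK2 averaged 7.83 ± 0.528 FPKM in siPRMT7 libraries and 8.80 ± 0.281 FPKM in siCtrl libraries (SD, n = 4 each; limma adjusted p = 0.291). CDC25A, the phosphatase that acts from late G1 onward, had no overlap, at 4.54 ± 0.438 FPKM in siPRMT7 and 5.26 ± 0.220 FPKM in siCtrl libraries (limma adjusted p = 0.310). CCNA1, the germline-type A cyclin, was on the other side, at 1.73 ± 0.131 FPKM in siPRMT7 and 1.45 ± 0.145 FPKM in siCtrl libraries (limma adjusted p = 0.409).

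The Greatwall and PP2A-B55 list holds subunits of a phosphatase that removes the phosphates CDK1 sets. It also holds Greatwall and the inhibitors that shut this phosphatase down. Of the list, 6 of 8 were above 0, with a median of 0.06. PPP2CB, a catalytic subunit of PP2A, averaged 15.1 ± 1.40 FPKM in siPRMT7 libraries and 13.2 ± 0.9755 FPKM in siCtrl libraries, with no overlap (SD, n = 4 each; limma adjusted p = 0.359). The nearest PPP2CB values, 14.12 FPKM in siPRMT7 and 14.05 FPKM in siCtrl libraries, were almost equal. Its log2 fold change was 0.17, and 0.12 without siPRMT7 replicate 2. ARPP19 and ENSA, related PP2A-B55 inhibitors that Greatwall switches on, lay on opposite sides. ARPP19 averaged 19.9 ± 0.212 FPKM in siPRMT7 libraries and 21.5 ± 0.972 FPKM in siCtrl libraries (SD, n = 4 each; limma adjusted p = 0.342), and ENSA averaged 15.6 ± 0.856 FPKM in siPRMT7 and 14.5 ± 1.04 FPKM in siCtrl libraries (limma adjusted p = 0.497).

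**Figure D5:**
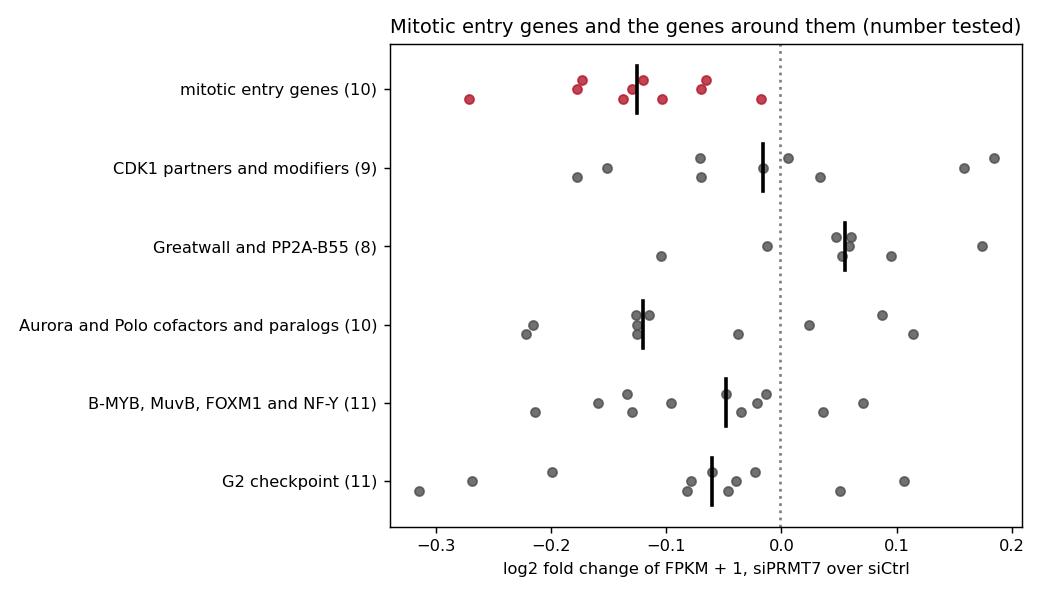
Log2 fold change of FPKM + 1, siPRMT7 over siCtrl, of each tested gene in the mitotic entry set (red) and in 5 lists of genes around it (grey); black bars are medians and the dotted line is the median of all genes tested. The medians are -0.12 for the mitotic entry genes and for the Aurora and Polo list, and 0.06 for the Greatwall and PP2A-B55 list.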

How the data were processed

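The deposited table holds FPKM values that the authors computed per gene and library; per the submitters' processing notes, the tools were featureCounts 1.6.3, HISAT2 2.1.0 and cutadapt 2.5, in no stated role or order. The notes name a mouse build, but the identifiers are human and the coordinates of all 58735 genes match GENCODE release 29 on GRCh38. FPKM times gene length gave whole multiples of 1 step per library for 100% of values above 0 (tolerance 0.01 fragments), so fragment numbers were rebuilt. The FPKM values proved to be already scaled between libraries by median ratios.

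From the deposited FPKM values, log2(FPKM + 1) was computed and tested with limma 3.58.1 in R 4.3.3 (variance trend, two-sided, Benjamini-Hochberg over all genes tested, threshold 0.05); this scale understates changes of low genes. PRMT7 and the 4 gene ratios were tested by exact permutation over 70 assignments. The 10 genes and the lists were chosen with earlier results of these data known. Named beside the 10 and PRMT7 were the 3 tested genes of each list with the smallest unadjusted p, and the 5 protein-coding genes (mean FPKM of at least 5) with the highest within-group correlation. Promoters are RefSeq's. Alternatives were other pseudocounts, filters, scalings, variance models, library weights, a replicate block, voom on rebuilt fragments, protein-coding genes alone, and leaving out each library.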

Additional observations from a re-analysis of the deposited data

Results flagged for a closer look

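CDK1 in siPRMT7 replicate 2, at 17.2 FPKM, stood apart from the other siPRMT7 libraries at 13.96, 13.9 and 14.1 FPKM. The gap to the nearest library was 0.953 of the whole range of the group, above the Dixon limit of 0.829 for 4 samples. It was the 1 group singled out of 22 groups tested, and chance singles out about 1 in 20. This is also the library whose ribosomal protein share was highest, at 3.90%, and no cause was tested.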

How the results depend on the processing

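The 10 genes kept a negative median under every alternative run, from -0.17 to -0.10, and no gene but WEE1 changed sign. WEE1 ranged from -0.0784 to 0.0358 when each library was left out, being positive without siPRMT7 replicate 3 (0.0186), siPRMT7 replicate 4 (0.0132) or siCtrl replicate 2 (0.0358). The number lower at an unadjusted p under 0.05, 2 as reported, was 6 on the TPM scale, 5 with quantile normalization, 5 with library weights, and 1 (without siCtrl replicate 3) to 6 (without siPRMT7 replicate 2) when each library was left out. With library weights 1 of the 10, CDK1, was called, and 1 list gene, TPX2; under the other alternatives 0 were. Of all genes tested, 2 were called as reported, 1 with a pseudocount of 0.1, 5 without a filter, 1 at FPKM of at least 5, 1 with quantile normalization, 58 with library weights, 15 with voom on rebuilt fragments, 11 among protein-coding genes alone (chosen after seeing the data), and 0 to 4 when each library was left out. No pairing by replicate number was seen: correlations were -0.03 to 0.06 for same-numbered libraries and -0.12 to 0.13 for the others. With 4 libraries a group this check cannot exclude pairing. The fit with the replicate block called 0 genes. On the TPM scale, 1045 genes were lower and 765 higher at an unadjusted p under 0.05, against 738 and 1031 as reported. The median log2 fold change of all genes tested was then -0.0352, against -0.0015 as reported. PRMT7 was at -0.14 on the TPM scale, with an exact permutation p of 0.0286, against -0.10 as reported. When each library was left out, CCNB1 over CCNB2 ranged from -0.056 to 0.0198, CDC25B over CDC25C from -0.0469 to 0.113 and AURKA over AURKB from -0.0009 to 0.10, all crossing 0, and WEE1 over CDC25C from 0.0223 to 0.186. Depth limits CDC25C most, and with FPKM of at least 5 it and WEE1 were not tested. The causes were not tested.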
